A study of Mus musculus with 11 samples.

Results

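WDR5 and P53 binding were compared in wild-type (WT) mouse embryoid bodies at day 2, from 4 of the 11 peak lists of the series, 2 for each antibody. The lists came from CUT&RUN, in which an antibody on chromatin directs a nuclease to release the bound DNA for sequencing. Peaks of an antibody were merged, and an interval with a peak in each of its 2 lists was a region, on chromosomes 1 to 19, X or Y. This gave 438 WDR5 regions and 288 P53 regions, which merged into 675 intervals. The cells were WT embryonic stem cells with GFP knocked into Rx, a gene of the early eye field, and were differentiated by the SFEBq method with 5% KSR. Doxycycline, whose use the labels do not explain, was removed at day 0 and matrigel was added to 2% at day 1, and 2 µg of anti-WDR5 or anti-P53 was used on 2 M cells. Lists from Wdr5 and p53 double knockout (DKO) bodies of the same background and day, and the WT H3K4me3 list, served as side readings. The DKO cells are labelled as lacking both proteins, so a region that was also called there was called without its labelled target.

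WDR5 is a scaffold protein with a ring of WD repeats. It holds together the MLL and SET1 complexes, which methylate lysine 4 of histone H3 at promoters, and it does not recognise a DNA sequence by itself. P53, the tumour suppressor encoded by Trp53, is a transcription factor that binds a pair of decamers in DNA and activates genes of cell cycle arrest, apoptosis and DNA repair. H3K4me3, the trimethylated form of that lysine, marks active promoters.

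The WDR5 lists held 725 and 450 peaks from 26.6 M and 24.1 M fragments, and the P53 lists held 396 and 294 peaks from 26.4 M and 23.9 M, where M is mega. The sample titles call the 2 lists of an antibody replicates, and whether they are separate libraries is not known. List 2 repeated list 1 to the base in 77.3% of its WDR5 summits and 80.3% of its P53 summits, so each antibody was counted as 1 library. There is thus no replicate error for any difference below, no p-value is given, and the 95% intervals cover counting error within these libraries only. Between antibodies, 2 of the 396 P53 summits of list 1 (0.505%) coincided with a WDR5 summit of its list 1. WT H3K4me3 lay at 5 of 6 pluripotency markers (Pou5f1, Sox2, Zfp42, Utf1 and Dppa4), but at 2 of 7 anterior neural and eye field markers (Six6 and Otx2), and Rax itself had no peak. It lay at 1 of 6 mesoderm and endoderm markers, 2 of 5 trophoblast markers and 1 of 4 fibroblast feeder markers. In bulk chromatin of this kind, binding in few cells and weak binding in many cells cannot be told apart.

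Promoters at WDR5 peaks and promoters at P53 peaks are shown here as examples of the sequence at each kind of place. Each line gives the 250 bases before a RefSeq start site, read 5′ to 3′ on the strand of the gene, in build GRCm38.p6 (mm10). They were chosen after their values were seen. In the 4 promoters at WDR5 regions, capitals mark CCAAT (or ATTGG, its reverse complement) and GGGCGG (or CCGCCC), the CCAAT box and the GC box. Boxes were marked over the whole printed stretch, inside or outside the region. Tomm40 encodes the pore through which mitochondria import proteins (chr7:19715430-19715679, minus strand). Cic encodes a transcriptional repressor of the HMG-box family (chr7:25267449-25267698, plus strand), and Rpl27 a protein of the large ribosomal subunit (chr11:101441995-101442244, plus strand). The Rpl27 region began 20 bases after the 5′ end of the gene, so it covered none of the printed bases. Sp1 encodes the zinc finger factor that binds GC boxes (chr15:102406066-102406315, plus strand), and was bound by both WDR5 and P53.
Tomm40: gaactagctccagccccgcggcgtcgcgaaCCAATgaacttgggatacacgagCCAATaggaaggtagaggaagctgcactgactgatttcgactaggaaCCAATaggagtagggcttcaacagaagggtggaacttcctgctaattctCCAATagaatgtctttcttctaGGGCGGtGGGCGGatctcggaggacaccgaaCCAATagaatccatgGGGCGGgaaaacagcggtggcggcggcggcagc
Cic: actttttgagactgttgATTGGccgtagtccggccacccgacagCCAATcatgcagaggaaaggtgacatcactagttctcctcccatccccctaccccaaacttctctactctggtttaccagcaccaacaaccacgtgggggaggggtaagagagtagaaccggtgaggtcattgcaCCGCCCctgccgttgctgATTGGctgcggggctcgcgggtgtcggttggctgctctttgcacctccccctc
Rpl27: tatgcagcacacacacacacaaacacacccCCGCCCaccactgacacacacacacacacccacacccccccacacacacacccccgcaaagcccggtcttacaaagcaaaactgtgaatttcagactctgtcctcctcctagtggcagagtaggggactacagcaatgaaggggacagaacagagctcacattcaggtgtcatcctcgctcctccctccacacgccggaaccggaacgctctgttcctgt
Sp1: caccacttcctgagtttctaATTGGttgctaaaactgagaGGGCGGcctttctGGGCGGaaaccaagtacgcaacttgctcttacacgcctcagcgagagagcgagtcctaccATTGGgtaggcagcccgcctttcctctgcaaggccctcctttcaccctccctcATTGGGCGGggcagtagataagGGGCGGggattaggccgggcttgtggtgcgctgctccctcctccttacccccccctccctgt

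The Tomm40 window held 5 CCAAT boxes and 3 GC boxes, and the Cic window 3 and 1. The Sp1 window held 3 and 4, with a CCAAT box and a GC box sharing bases at 1 place, while the Rpl27 window held no CCAAT box and 1 GC box. Not all of these lay inside a region. The Tomm40 region (19715527 to 19716038) covered none of the marked GC boxes and not the last CCAAT box. The Cic region (25267599 to 25268235) began after the first marked ATTGG and the marked CCAAT. At P53, promoters of 2 textbook p53 target genes are shown that had a peak in list 1 but not in list 2, and so are not among the 288 regions. Capitals mark the 20 bases most like the pair of p53 decamers. Cdkn1a encodes the cell cycle inhibitor p21 (chr17:29090729-29090978, plus strand), and Aen an apoptosis-enhancing nuclease (chr7:78895808-78896057, plus strand).
Cdkn1a: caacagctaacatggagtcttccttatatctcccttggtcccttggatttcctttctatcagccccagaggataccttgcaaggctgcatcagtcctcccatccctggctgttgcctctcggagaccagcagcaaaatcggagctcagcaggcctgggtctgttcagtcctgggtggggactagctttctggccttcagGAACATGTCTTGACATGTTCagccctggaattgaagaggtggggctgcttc
Aen: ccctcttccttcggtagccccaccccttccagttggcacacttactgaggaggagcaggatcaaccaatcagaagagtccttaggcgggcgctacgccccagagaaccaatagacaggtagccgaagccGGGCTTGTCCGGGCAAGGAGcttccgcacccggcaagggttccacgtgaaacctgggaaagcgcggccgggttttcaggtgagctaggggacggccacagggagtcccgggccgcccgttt

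The Cdkn1a match had 1 mismatch to the p53 motif and lay from 51 to 32 bases before the RefSeq start site of the printed window. That window had no WT H3K4me3, and the distance of the match to any other start of the gene was not measured. The match began 14 bases past the end of the list 1 peak, which had a fold enrichment (the authors' value, pileup over the local background of the library) of 4.76. The Aen match had 3 mismatches, lay from 121 to 102 bases before the start, and was inside its peak, which had a fold enrichment of 5.28. Over all 21262 promoter windows of 300 bases, which run from 250 bases before to 50 after a start, 0.0517% held a match with at most 1 mismatch and 1.35% one with at most 3. None of the 3 promoters under P53 regions, those of Sp1, Exoc4 and Zfp958, held a match with at most 3 mismatches, and these letters were searched only in those windows.

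WDR5 lay at the ends of genes and P53 lay away from them. Of the 438 WDR5 regions, 253 (57.8%, 95% interval 53.1 to 62.3) were at most 1 kb from an end of a protein-coding gene, against 15 of the 288 P53 regions (5.21%, 3.18 to 8.41). The difference was 52.6 percentage points (46.9 to 57.5). Without the regions called in DKO it was 57.9 points. Counted by gene, 326 of 21883 protein-coding genes (1.49%) had a WDR5 region this close to an end, and 15 (0.0685%) a P53 region.

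The contrast was sharper among regions called with 1 antibody. Of the 388 WDR5 regions that overlapped no P53 region, 80 (20.6%) overlapped a gene end and a further 169 (43.6%) lay up to 1 kb from one. Of the 238 P53 regions that overlapped no WDR5 region, none overlapped a gene end, which allows a share of up to 1.59% (Wilson interval), and 11 (4.62%) lay up to 1 kb from one. Between 10 and 100 kb from an end lay 54 of the WDR5 regions (13.9%) and 110 of the P53 regions (46.2%), and farther out lay 17 (4.38%) and 52 (21.8%). From an end, the median distance was 180.5 bases for WDR5 (128 to 284) and 19436 bases for P53 (14602 to 25224). Within gene bodies but away from their ends, the 2 were closer, with 68 of 388 WDR5 regions (17.5%) and 69 of 238 P53 regions (29.0%).

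**Figure D1:**
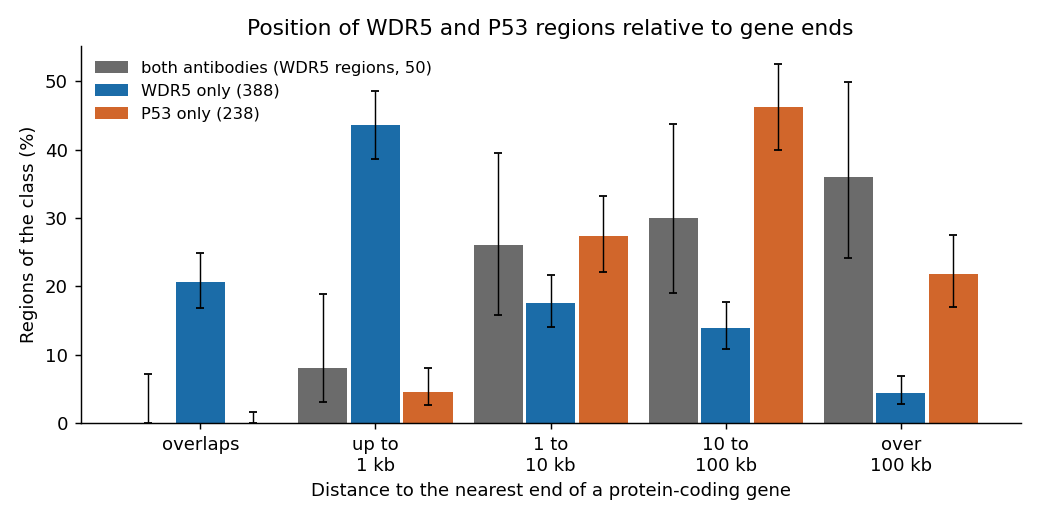
Share of regions (y axis, percent of each class) by distance to the nearest end of a protein-coding gene (x axis), for WDR5 regions that overlap a P53 region, WDR5 regions alone and P53 regions alone; bars on columns are Wilson 95% intervals. WDR5 regions alone peak up to 1 kb from an end (43.6%), P53 regions alone at 10 to 100 kb (46.2%), and regions of both spread outwards to over 100 kb (36%).

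The gene ends at WDR5 regions were mostly 5′ ends. Among the 203 WDR5 regions at an end whose gene has a known strand, the nearest end was the 5′ end in 199 (98.0%, 95.04 to 99.2), against 9 of 12 for P53 (75%, 46.8 to 91.1). A summit within 1 kb of a RefSeq start was found in 221 of 428 WDR5 regions and in 5 of 279 P53 regions, on the chromosomes with start sites in the table. The median WDR5 summit lay 165 bases before the start, with quartiles from 313 before to 108 after, and 140 of the 221 lay before it. For WDR5, 130 summits lay within 250 bases of a start, and for P53 none did. From 100 to 400 bases before the start lay 100 WDR5 summits, within 100 bases of it 31, and from 100 to 400 bases after it 50, so that the stretch before the start held the most.

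**Figure D2:**
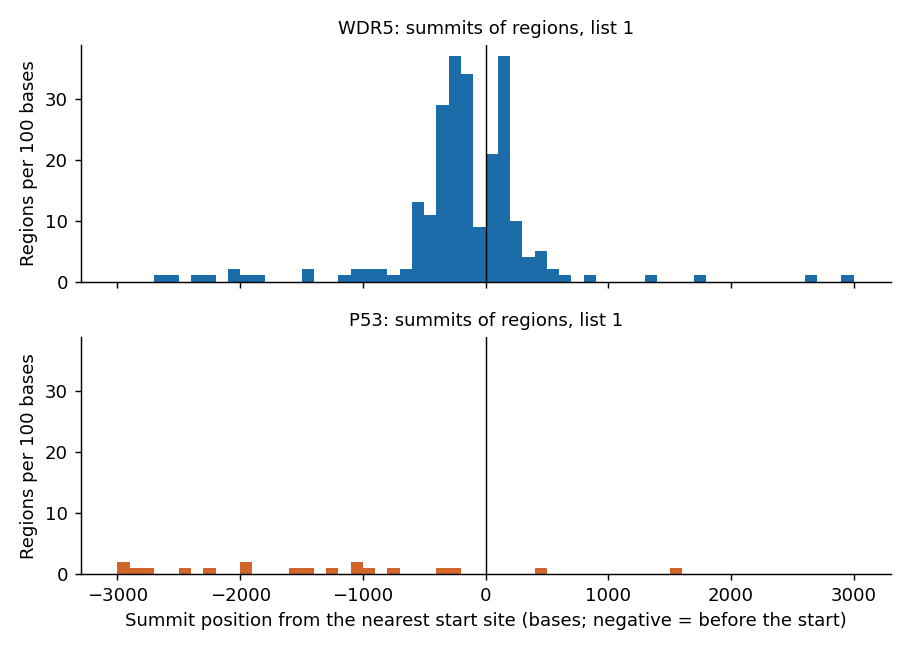
Number of regions (y axis) by position of the list 1 summit relative to the nearest RefSeq start site in bases (x axis, bins of 100 bases), for WDR5 (top) and P53 (bottom) on the same scale. WDR5 summits form a peak on each side of the start, and P53 has 5 summits within 1 kb.

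Some WDR5 regions lay next to 2 genes that start on opposite strands. Such starts lay within 1 kb of 43 of the 253 WDR5 regions at an end (17.0%, 12.9 to 22.1), against none of the 15 for P53 (up to 20.4%). For 50 of the 253 the nearest gene had no known strand, so pairs there could be missed. The share over all gene ends was not computed, so the 17.0% is not shown to be particular to WDR5. The highest of these regions was that at Map3k10, a kinase of the JNK pathway, and Zfp607b, with a fold enrichment of 9.08 in list 1 and 8.23 in list 2. Cct7, a subunit of the chaperonin that folds actin and tubulin, and Pradc1 shared a region with 8.24 and 7.01. Brca1, the homologous recombination gene, and its neighbour Nbr1 shared one with 4.90 and 4.74, which was also called in DKO. Rps18 and Vps52 shared one with 6.18 and 5.98, and Cbx5, which encodes heterochromatin protein HP1 alpha, and Hnrnpa1 one with 6.15 and 5.90.

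CCAAT was more frequent in promoters under WDR5 than in other promoters. It was found on either strand in 126 of the 239 promoter windows (of 214 genes) that overlapped a WDR5 region (52.7%, 46.4 to 59.0), as in those of Tomm40, Cic and Sp1 above. The share was 36.8% (35.3 to 38.4) in the 3730 windows with WT H3K4me3 but no WDR5, and 38.2% over all 21262 windows. GGGCGG was found in 75.3% of the windows under WDR5, in 66.7% of those with H3K4me3 alone and in 46.2% of all. CCGGAAG, the core recognised by ETS factors, was at 17.2%, 25.3% and 11.6%, and the TATA box letters TATAAA were at 2.51%, 5.17% and 12.6%. CACGTG, an E-box, was at 12.1%, 8.55% and 7.84%, and CCATNTTG, the core recognised by YY1, at 9.21%, 8.74% and 5.18%. Windows of 1 gene can overlap, so they are not independent. The median GC content of the windows was 60.3% under WDR5, 62.0% with H3K4me3 alone and 56.3% over all. Each motif was searched on both strands, overlaps between motifs were allowed, and the set of motifs was chosen with results of these data known. A pair of p53 decamers with at most 2 mismatches lay in 1 of the 239 windows under WDR5 (0.418%), against 0.310% of all windows.

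Ribosomal protein genes were the list most often found at WDR5, with 19 of 80 members (23.8%) within 1 kb of a region, against 1.49% of all protein-coding genes, and 0 of 80 within 5 kb of a P53 region, against 0.274%. At that background no member of a list of this size would usually lie near P53, so the 0 is not a result about these genes. Like the other lists, this one was chosen with earlier results of these data known, so the 23.8% is not independent support. The 19 included genes of the large subunit such as Rpl7 (fold enrichment 8.39 in list 1 and 8.27 in list 2), Rpl27 (7.04 and 6.57) and Rpl23 (6.56 and 6.43). Those of the small subunit included Rps14 (6.85 and 6.00), Rps3 (6.57 and 6.80), Rps19 (6.20 and 5.70), Rps18 and Rps29 (4.77 and 4.51). The lowest of the 19 was Rpl41, at 4.24 and 3.90. None of the 19 regions overlapped a P53 region, against 11.4% of all WDR5 regions, and none was called in DKO, against 31.1%. At 11.4%, few of 19 regions would overlap P53, so that 0 says little about these genes. WT H3K4me3 overlapped 14 of the 19 regions, against 50.7% of all WDR5 regions and 53.8% of those at a gene end. Regions off the mark included those of Rpl10, Rpl35a, Rpl7a and Rps29.

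Other lists of growth and maintenance genes had fewer members within 1 kb of WDR5, to be read against the 1.49% of all genes. None lay within 5 kb of P53, which at 0.274% of all genes is usual for lists of 16 to 42 genes. Of 28 mitochondrial import genes, 3 (10.7%) lay within 1 kb of a WDR5 region. These were Tomm40 (8.68 and 8.03), Timm21 (8.49 and 7.94) and Timm13 (4.60 and 4.24), and the Timm21 and Timm13 regions were also called in DKO. Of 16 chaperonin genes, 2 did (12.5%), Cct7 and Cct4 (6.74 and 6.42). Of 40 DNA repair genes, 3 did (7.5%), namely Brca1, the excision repair gene Ercc1 (8.39 and 7.52) and the mismatch repair gene Msh3 (5.77 and 5.65, also called in DKO). Translation factor genes had 2 of 42 (Eef1g and Eif3d), cell cycle genes 2 of 41 (Cdca2 and E2f3) and ribosome biogenesis genes 1 of 40 (Nop16). These 3 shares, at 2.50% to 4.88%, rested on 1 or 2 genes each. The lists of MLL and SET1 complex, pluripotency, anterior neural and eye field, mesoderm and endoderm, trophoblast and fibroblast feeder genes had none within 1 kb of a WDR5 region and none within 5 kb of a P53 region. Within 5 kb of an end, where 2.06% of all genes had a WDR5 region, the pluripotency list gained Otx2 (5.31 and 5.33, at 1712 bases) and Utf1 (5.18 and 4.59, at 4860 bases). Otx2 is also in the anterior neural list, and the mitochondrial import list gained Timm44 (5.43 and 4.81).

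P53 target genes were the 1 list of the 14 with members near a P53 region, and 2 of its members lay near WDR5. Within 1 kb of an end, 2 of the 40 members (5.00%) had a WDR5 region, against 1.49% of all genes, and 4 (10%) had a P53 region, against 0.0685%. At 5 kb the counts were 2 for WDR5, against 2.06% of all genes, and 5 for P53 (12.5%), against 0.274%. The members were chosen with earlier results of these data known, so these shares describe the list and are not independent support. Bbc3, the gene of the apoptosis inducer PUMA, had the highest fold enrichment, at 12.8 in list 1 and 11.7 in list 2, and its region lay just inside the 5′ end. Zmat3, an RNA-binding zinc finger gene, had 8.95 and 8.35, Rap2b, a small GTPase gene, 8.96 and 7.69, Plk2, a polo-like kinase gene, 7.79 and 7.36, and Eda2r, a receptor of the TNF receptor family, 4.78 and 4.67. Over all P53 regions, 26.0% were called in DKO and 19.4% overlapped a WDR5 peak of either list. None of these 5 was called in DKO, and no such WDR5 peak overlapped 4 of them, which is usual at those shares. Only the Rap2b region overlapped a WDR5 peak. The other member at WDR5 was Sesn1, a sestrin gene induced by stress (6.47 and 5.88). Its WDR5 region lay 616 bases from the gene and within 1 kb of the start of Cep57l1 on the other strand, and P53 had no region within 5 kb.

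The 15 P53 regions within 1 kb of a gene end were few enough to name. Besides Bbc3, Zmat3, Eda2r and Rap2b, they lay at Zfp958 (13.5 and 12.8, also called in DKO), Naa20, a catalytic subunit of an N-terminal acetyltransferase (9.12 and 8.99), Dyrk3, a dual-specificity kinase gene (8.29 and 7.89), and Pdcl, a phosducin-like gene (7.26 and 7.72). The rest lay at Esco2, a cohesin acetyltransferase gene (6.45 and 6.28), Rnpepl1 (6.92 and 5.97), Csn1s1, a casein gene (5.56 and 5.42), and Exoc4, an exocyst subunit gene (5.16 and 4.76), and at Lars2, Sp1 and St6galnac1, where WDR5 was called too. WT H3K4me3 overlapped 136 of the 253 WDR5 regions at an end (53.8%, 47.6 to 59.8) and 3 of these 15 P53 regions (20%, 7.05 to 45.2), those at Zmat3, Lars2 and St6galnac1.

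H3K4me3 was more frequent at WDR5 than at P53. It overlapped 222 of 438 WDR5 regions (50.7%) and 73 of 288 P53 regions (25.3%), a difference of 25.3 points (18.3 to 31.9). Among regions called with 1 antibody and not in DKO, it overlapped 117 of 300 WDR5 regions (39%) and 10 of 210 P53 regions (4.76%). Within those also called in DKO, the shares were 60 of 88 (68.2%) and 17 of 28 (60.7%).

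The highest regions of either antibody were not at genes of the lists above. Among the 10 WDR5 regions with the highest fold enrichment that overlapped no P53 region, 1 lay at a gene end, that of Cic (9.95 and 9.38). The others included a region inside Camk1d, a calcium and calmodulin dependent kinase gene (17.7 and 16.4), 1 inside Jarid2, a partner of Polycomb complex PRC2 (17.4 and 15.6), 1 inside Gphn, the gephyrin gene (13.5 and 12.4), and 1 inside Cdk8, the kinase of the Mediator complex (13.5 and 11.8). The nearest genes of the rest were Col19a1, Samd9l, Mc2r, Myl12b and Dus1l. Of these 10, 7 were also called in DKO and 6 lay on H3K4me3. Over all 388 WDR5 regions alone, 22.7% were called in DKO, 45.6% lay on H3K4me3 and 64.2% lay at a gene end.

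Among the 10 highest P53 regions that overlapped no WDR5 region, 1 lay at a gene end (Zfp958), 7 lay inside a gene and 1 lay on H3K4me3. The highest was near Rps6ka1, a ribosomal S6 kinase gene, with 22.6 in list 1 and 20.7 in list 2. Bst2, which encodes the antiviral protein tetherin, was the nearest gene of a region with 17.5 and 15.6, and regions inside Cd302, a lectin receptor gene, and Glipr2 had 15.0 and 14.6, and 14.6 and 13.7. The others were inside or near Gm29721, Cemip2, Mtmr10, Npl, a sialic acid lyase gene, and Zfp809, which silences retroviruses. In DKO, 5 of the 10 were also called, those of Bst2, Gm29721, Cd302, Glipr2 and Zfp958. Over all 238 P53 regions alone, 11.8% were called in DKO and 11.3% lay on H3K4me3. At a gene end lay 4.62% of them, and inside a gene 30.7%.

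WDR5 regions were narrower than P53 regions. The median width was 305 bases for WDR5 (294 to 316) and 398.5 bases for P53 (369 to 429). The difference ran through both lists, with median peak widths of 272 and 262 bases in the WDR5 lists and 341 and 352 bases in the P53 lists. The libraries also differed in mean fragment length, per the file headers, which was 185 and 182 bases for WDR5 and 211 and 206 bases for P53, and the part of fragment length in the widths was not tested. Among regions called with 1 antibody, P53 was the wider at each fold enrichment. Below 5-fold, the medians were 274 bases for WDR5 (256 to 286) and 314 for P53 (264 to 340), with intervals that overlapped. From 5 to 8 they were 313.5 bases for WDR5 (302 to 321) and 370 for P53 (342 to 413). At 8 and above they were 328.5 bases for 16 WDR5 regions (230 to 512) and 482 for 58 P53 regions (434 to 565), again with overlap. No WDR5 region alone reached 1000 bases, and 3 P53 regions alone did, of which 1 was called in DKO.

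**Figure D3:**
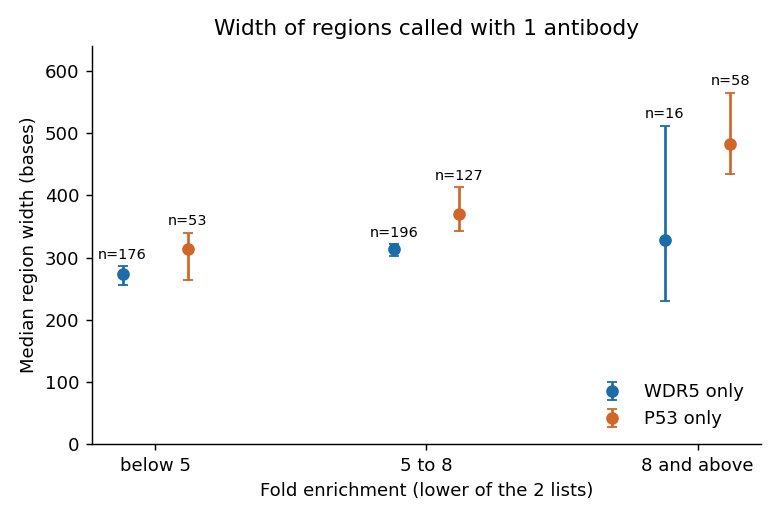
Median region width in bases (y axis) for regions called with WDR5 only and with P53 only, in 3 bands of fold enrichment (x axis, the lower value of the 2 lists); bars are order-statistic 95% intervals and n is the number of regions. P53 medians lie above WDR5 medians in each band, with separate intervals from 5 to 8.

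WDR5 and P53 shared few regions, and nearly all of these were called in DKO too. A P53 region overlapped 50 of the 438 WDR5 regions (11.4%, 8.77 to 14.7), and a WDR5 region overlapped 50 of the 288 P53 regions (17.4%, 13.4 to 22.2). They merged into 49 intervals. A WDR5 or P53 peak of DKO overlapped 47 of these 49 (95.9%), against 116 of the 626 intervals of 1 antibody (18.5%), a difference of 77.4 points (67.2 to 81.5). H3K4me3 overlapped 45 of 49 (91.8%) and 204 of 626 (32.6%), a difference of 59.2 points (47.6 to 65.3). Unlike the WDR5 regions alone, those shared with P53 lay at a gene end in 4 of 50 cases (8%, 3.15 to 18.8). The difference from the 64.2% of WDR5 regions alone was -56.2 points (-62.9 to -44.3).

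At many shared places the summits of the 2 antibodies lay close together. The summits lay a median of 45.5 bases apart (12 to 117), with 25 of 50 within 50 bases and 2 on the same base. The upper quartile was 206.75 bases and the largest distance 1018 bases. The ratio of WDR5 to P53 fold enrichment, each the lower value of its 2 lists, had a median of 1.15 and a range of 0.198 to 2.97. In list 1 the WDR5 value was the higher in 38 of 50. Fold enrichments of the 2 antibodies come from libraries that are not scaled to each other, so these ratios and the values below describe each library and do not show that more of 1 protein was bound. The highest shared region lay inside Chl1, a neural adhesion gene, at 42.5 and 38.2 for WDR5 and 38.5 and 34.5 for P53. That near Rpusd4 had 27.1 and 27.4 for WDR5 and 26.3 and 26.3 for P53. The values were farther apart inside Lars2, which encodes the mitochondrial leucyl-tRNA synthetase (34.5 and 32.9 for WDR5, 12.4 and 12.1 for P53), and near Pex2, a peroxisome gene (26.9 and 26.4, against 10.8 and 10.98). Near Zfp981, a zinc finger gene, off H3K4me3, they were 3.48 and 3.60 for WDR5 and 19.3 and 17.6 for P53. Ranked by WDR5 fold enrichment, the 10 highest shared regions were those of Chl1, Lars2, Rpusd4 and Pex2 and those nearest Filip1l, Brox, Axin2, Lrrc4c, Gm2244 and Ly6c2. These 10 lay on H3K4me3 and were called in DKO.

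**Figure D4:**
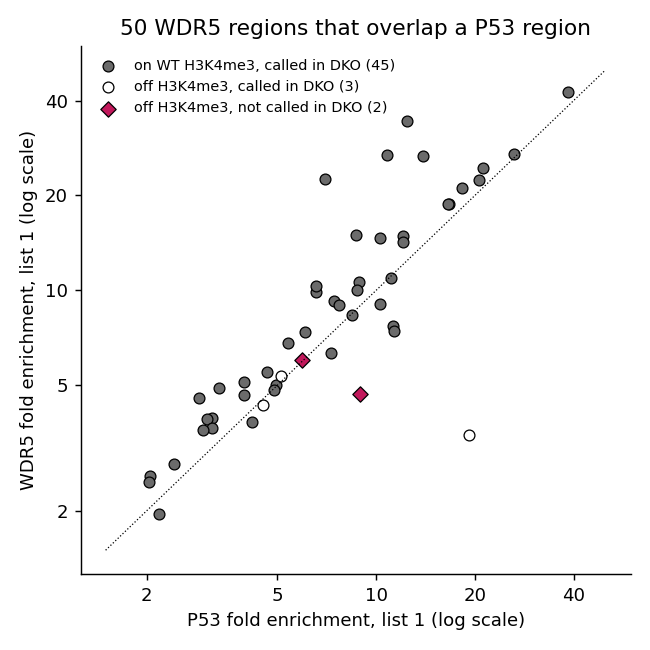
Fold enrichment of WDR5 (y axis, log scale) against that of P53 (x axis, log scale) in list 1 for the 50 WDR5 regions that overlap a P53 region; the dotted line marks equal values and symbols give overlap with WT H3K4me3 and with DKO peaks. In 38 of 50 the WDR5 value is the higher, on scales not set to each other, and the 2 diamonds are Sp1 and Rap2b, the regions not called in DKO.

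Sp1 and Rap2b were the 2 shared regions with no peak in any DKO list of WDR5 or P53, and neither lay on H3K4me3. The Sp1 regions ran from 102405724 to 102406203 for WDR5 and from 102405710 to 102406233 for P53 on chromosome 15. They covered the first part of the promoter printed above. Both ended before the GC box that shares bases with a CCAAT box, and so also before the last marked GC box. The WDR5 region ended before that CCAAT box, and the P53 region ended within it. Their fold enrichment was 6.00 in list 1 and 6.47 in list 2 for WDR5, and 5.94 and 5.69 for P53, with summits 59 bases apart. The Rap2b region had 4.69 and 4.79 for WDR5 and 8.96 and 7.69 for P53, with summits 91 bases apart. Of 21883 protein-coding genes, 14 (0.064%) had regions of both antibodies at most 5 kb from an end. Besides Sp1, Rap2b and Lars2, these were Sp140, Brox, Aida, Sfi1, Gm51877, Eif4enif1, St6galnac1, Glipr2, Zfp981, Apool and Mid1. At Sfi1 and Glipr2 the nearest regions of the 2 antibodies did not overlap. Glipr2 had a WDR5 region over its end (4.08 and 4.24, on H3K4me3 and not called in DKO), while the P53 region lay 2816 bases from an end.

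Shared places were most frequent at the highest signal for WDR5 and at both extremes of signal for P53. The regions of each antibody were ranked by fold enrichment and split into 4 equal groups. From the highest group to the lowest, 25.5%, 2.75%, 6.36% and 11% of the WDR5 regions were shared with P53. For P53 the shares were 29.2%, 11.1%, 4.17% and 25%, so the lowest group held nearly as many as the highest. In the same order, 57.3%, 21.1%, 18.2% and 27.5% of the WDR5 regions and 40.3%, 13.9%, 8.33% and 41.7% of the P53 regions were also called in DKO.

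Along the chromosomes, the share of regions with another region of the same antibody within 100 kb was 22.8% for WDR5 (100 of 438) and 19.1% for P53 (55 of 288). The difference of 3.73 points had an interval that held 0 (-2.42 to 9.59), and with equal numbers of regions it was -2.43 points (-8.70 to 3.85). It was larger under other settings: 5.29 points (0.306 to 9.97) without regions called in DKO, 7.66 points (1.84 to 12.97) without WDR5 list 2, and 21.3 points (13.9 to 28.3) at 1 Mb. Among regions of 1 antibody it was 7.35 points (1.76 to 12.5), with 17.0% of WDR5 and 9.66% of P53 regions. Equal numbers gave the 1 value with the opposite sign among these settings. The other settings kept more WDR5 than P53 regions, and how far that raised the WDR5 share was not tested beyond the equal numbers. Clusters of 2 kinds made up these shares. In those that held a region of both antibodies, 1 of 40 WDR5 regions lay at a gene end and 36 were called in DKO, and 0 of 39 P53 regions lay at an end and 38 were called in DKO. In the 28 clusters of WDR5 alone, 46 of 60 regions lay at a gene end, and in the 8 clusters of P53 alone none of 16 did.

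The largest clusters were the same places for both antibodies. On chromosome 9 between 3000017 and 3038196 lay 9 WDR5 and 11 P53 regions, all called in DKO, with no gene end within 100 kb. Around Sfi1 and Gm51877 on chromosome 11 lay 8 WDR5 and 9 P53 regions, of which 7 and 8 were called in DKO. Further clusters of both lay near Gm2244 on chromosome 14, near Esp38 on chromosome 17, near Gm52481 on chromosome Y and near Sp140 on chromosome 1. Clusters of 3 WDR5 regions without P53 were at Stx5a, Zbtb3 and Hnrnpul2 on chromosome 19, at Rpl32, Efcab12 and Ift122 on chromosome 6, at Usp5, Cdca3 and Ptms on the same chromosome, and at Snrpd2, Eml2 and Opa3 on chromosome 7. No cluster of P53 alone had more than 2 regions, and examples were Ngly1 with Top2b, Bptf with Pitpnc1, and Cyb5r3 with A4galt.

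Regions called with 1 antibody seldom lay close to those of the other. Of the 388 WDR5 regions alone, 1 lay within 1 kb of a P53 region alone, 19 (4.90%) within 100 kb and 85 (21.9%) within 1 Mb. Of the 238 P53 regions alone, 1 lay within 1 kb of a WDR5 region alone, 20 (8.40%) within 100 kb and 69 (29.0%) within 1 Mb. Per 1000 protein-coding genes, WDR5 regions alone were most frequent on chromosomes 8 (29.8), 7 (27.6), 10 (26.97) and 11 (24.9), where P53 regions alone stood at 10.6, 6.90, 13.0 and 9.32. On chromosomes 1, 18 and 12, WDR5 regions alone stood at 19.1, 19.6 and 8.84, and P53 regions alone had their highest values, 22.4, 17.6 and 16.2. Both were scarce on X, at 2.07 for WDR5 and 3.11 for P53.

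**Figure D5:**
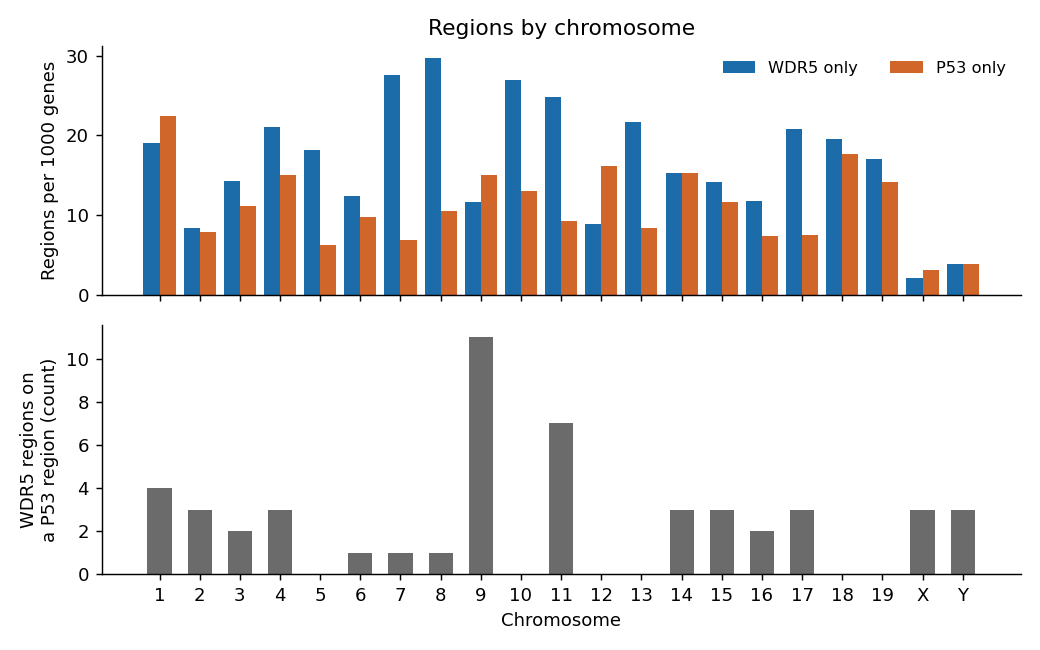
Regions by chromosome: WDR5 only and P53 only per 1000 protein-coding genes (top) and the number of WDR5 regions that overlap a P53 region (bottom). WDR5 exceeds P53 on chromosomes 7 and 8 by the widest margins, and chromosome 9 holds 11 of the 50 shared regions.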

How the data were processed

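The file headers name MACS 2.1.2 or 2.1.0.20150731 as the authors' peak caller, run with no control, a q-value threshold of 0.01, a lambda window of 10 kb and up to 2 duplicates. Also named, in the submitters' processing notes, are Bowtie2, SAMtools 1.5, bedtools, MACS2 2.1.0, HOMER 4.10 and build mm10. Pileup is a coverage signal, not scaled to depth, and -log10 p, -log10 q and the fold enrichment, a ratio to the local background, are as the authors deposited them. Fold enrichments of different libraries are not scaled to each other. All 4 lists numbered 1 or 2 were called separately, and list 2 on an alignment merged from runs, per the file headers.

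From the lists, regions were built with an overlap of at least 1 base (Python 3.11.15, pandas 2.3.3), leaving out 12 mitochondrial peaks. Shares have Wilson intervals and differences Newcombe intervals (statsmodels 0.14.6), and medians have order-statistic intervals. No test was run, since 2 lists against 2 cannot go below an exact permutation p of 0.333. Gene spans and promoters came from RefSeq tables of GRCm38.p6. Strand was known for 17491 of 21883 protein-coding genes (79.9%). Sequences of the regions themselves were not analysed here. The 14 gene lists had 493 entries, all matched. Named genes were the 10 highest regions of each class, list members at a region, genes with both antibodies within 5 kb, and clusters of 3 or more regions. Other genes, including those at P53 gene ends, those at starts on opposite strands and the smaller clusters, were named after their values were seen. Members and lists were chosen with earlier results of these data known. The region code was tested on simulated peaks.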

Additional observations from a re-analysis of the deposited data

How the results depend on the processing

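Of 87 recomputed values, 63 moved by less than their interval, 23 moved further and 1 changed sign. No paired analysis was possible because the results come from no test and the lists of an antibody count as 1 library. Without regions called in DKO, the difference at gene ends was 57.9 points, the WDR5 median width 287 bases, the H3K4me3 difference 33.6 points, and the shared shares 0.662% of WDR5 and 0.939% of P53 regions. In the upper 50% of peaks by fold enrichment, median widths were 323 bases for WDR5 and 456.5 for P53, and the H3K4me3 difference 32.5 points. With equal numbers of regions, the WDR5 width was 316.5 bases, the shared share of P53 regions 12.5%, and the clustering difference -2.43 points, against 3.73 over all regions. A window of 1 Mb gave a clustering difference of 21.3 points, and H3K4me3 within 1 kb a difference of 45.4 points. Alternatives chosen after seeing the data were 5′ ends only (44.1 points), any peak of the other antibody, and clustering without shared regions or without the start of chromosome 9. Leaving out 1 list or the same-numbered lists gave 51.4 to 53 points at gene ends, widths of 262 to 305 bases for WDR5 and 341 to 398.5 for P53, shared shares of 7.86% to 12.6% of WDR5 and 13.9% to 19.1% of P53 regions, clustering differences of 3.1 to 7.66 points, H3K4me3 differences of 21.5 to 28.5 points and DKO differences of 74.3 to 77.9 points. The planned p53 motif share in P53 regions was not run, as no genome of this build was used. Peaks called without a control library can include places of high background.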
